A study of Mus musculus with 17 samples.

Results

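Serpine3 and 8 further serpin genes were followed through 17 RNA-seq libraries of mouse retinal pigment epithelium (RPE). The members were the rows of the count table with the symbols Serpine3, Serpine2, Serpina3n, Serpinf1, Serpinh1, Serpinb6a, Serpinb9, Serpini1 and Serpinb1a, so that 9 of the 22253 genes of the table, and 9 of its 63 serpin genes, are described. The rule is a list of gene names. Each library came from a pool of RPE cells, 10 to 15 by the labels and a lower range by the methods of the study, picked by hand under the fluorescence microscope from Serpine3GFP/+ mice at 2 months and was prepared with a SMART-Seq kit. All 3 groups had the same genotype, in which a GFP reporter is knocked into 1 Serpine3 allele behind the start codon, so that every library had 1 intact Serpine3 allele and none came from wild-type mice. There were 6 libraries of peripheral GFP-positive cells (GFP+), 5 of peripheral GFP-negative cells (ctrl periphery) and 6 of central GFP-negative cells (ctrl center). Animals are called mouse 1 to mouse 7 here. Mice 1, 2, 4, 5 and 7 gave a library of each group, mouse 3 gave only a GFP+ library and mouse 6 only a ctrl center library, and mouse 1 carries 2 animal numbers. The comparisons ask how peripheral cells that use the Serpine3 locus differ from GFP-negative cells of the periphery and of the center, and how the latter differ from each other.

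Serpins are a family of proteins that share a fold with an exposed reactive loop. In the inhibitory members a protease cleaves the loop and is trapped in a stable complex, whereas some members have lost inhibition and serve as chaperones or hormone-like factors. RPE is best known in this family for secreting pigment epithelium-derived factor (PEDF, the Serpinf1 product), a non-inhibitory serpin with anti-angiogenic and neurotrophic activity.

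Levels are given as counts and as CPM, counts per 1000000 counts of the library after scaling of each library by the trimmed mean of M values (TMM). Total counts ranged from 9896118 to 22467079 per library. A count of 0 allows up to 3 counts, a floor equal to 0.116 to 0.554 CPM depending on the library, and it covers counting error only. The mitochondrial share of the counts was 0.710% to 17.2% in GFP+, 12.5% to 30.4% in ctrl periphery and 13.7% to 47.3% in ctrl center, and ctrl center of mouse 5 had the highest share and the lowest total. Of 12 RPE markers, 11 were found in all groups, with summed levels of 70581 to 84190 CPM in GFP+, 56816 to 90982 CPM in ctrl periphery and 49267 to 100223 CPM in ctrl center. The other one, Best1, a chloride channel of RPE, reached at most 2 counts. Of 11 macrophage markers, Csf1r was present in all libraries, at 59.9 ± 27.8 (SD, n = 6), 122 ± 17.9 (SD, n = 5) and 90.7 ± 21.2 CPM (SD, n = 6) in GFP+, ctrl periphery and ctrl center, Cd68 reached 175 counts and Ptprc 29, and the others had at most 3 counts, with C1qa, C1qb and Tyrobp at 0. The summed macrophage list ranged over 38.1 to 111, 105 to 146 and 68.4 to 116 CPM in the 3 groups. Of 9 glial markers, Gfap was at 0, Aqp4 reached at most 2 counts and Kcnj10 at most 5. Slc1a3 was at 0 in GFP+ and reached 96 counts in ctrl periphery and 32 in ctrl center. Dkk3 reached 718 counts in GFP+ and 160 in ctrl periphery and was at 0 in ctrl center. Clu, Apoe and Glul were each at 374 CPM or more in every library, and 10 fibroblast markers summed to at most 46.4 CPM. Summed levels of 14 photoreceptor markers ranged over 62.3 to 134, 80.6 to 153 and 122 to 239 CPM in the 3 groups. For 7 markers of other melanocytes they were 56.0 to 168, 54.2 to 163 and 64.1 to 241 CPM. For 10 markers of ciliary and iris epithelium they were 23.5 to 122, 30.5 to 69.8 and 35.4 to 108 CPM. The sum of 10 endothelial markers was at most 27.0 CPM. Vim, a filament gene on the list of glial markers, was higher in GFP+ than in ctrl periphery (log2 fold change 2.33, edgeR adjusted p = 0.00392), a call that was lost with mouse as a block, where 0 genes passed. The part of these markers in the values below was not tested. RNA came from pools, so that fewer cells with a transcript and less transcript per cell cannot be told apart in any value below.

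Promoter sequences are shown for 4 members that stand for the 3 kinds of pattern described below. Serpine3 was found almost only in the GFP+ pools. Serpina3n was above the floor in peripheral pools of some animals only, and Serpinb6a and Serpinh1 were present in every library. Each is the stretch of 250 bases before the RefSeq start site in GRCm38.p6, on the strand of the gene, with each CG dinucleotide in capitals. The windows are chr14:62663417-62663666 (plus strand) for Serpine3, chr12:104406458-104406707 (plus strand) for Serpina3n, chr13:34002795-34003044 (minus strand) for Serpinb6a and chr7:99353240-99353489 (minus strand) for Serpinh1.
Serpine3: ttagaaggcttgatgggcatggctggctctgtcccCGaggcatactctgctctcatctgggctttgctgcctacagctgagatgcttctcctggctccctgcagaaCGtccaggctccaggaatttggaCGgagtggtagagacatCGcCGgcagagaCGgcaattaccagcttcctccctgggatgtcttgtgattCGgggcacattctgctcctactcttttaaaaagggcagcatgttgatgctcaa
Serpina3n: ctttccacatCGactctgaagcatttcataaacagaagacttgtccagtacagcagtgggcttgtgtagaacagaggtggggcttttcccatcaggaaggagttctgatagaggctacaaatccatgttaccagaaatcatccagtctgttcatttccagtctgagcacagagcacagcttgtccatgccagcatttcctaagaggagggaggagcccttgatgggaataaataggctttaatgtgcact
Serpinb6a: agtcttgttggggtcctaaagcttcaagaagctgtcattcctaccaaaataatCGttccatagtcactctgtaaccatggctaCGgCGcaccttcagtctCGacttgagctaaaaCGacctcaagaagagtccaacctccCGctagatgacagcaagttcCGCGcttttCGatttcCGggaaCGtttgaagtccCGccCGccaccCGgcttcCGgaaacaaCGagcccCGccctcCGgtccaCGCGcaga
Serpinh1: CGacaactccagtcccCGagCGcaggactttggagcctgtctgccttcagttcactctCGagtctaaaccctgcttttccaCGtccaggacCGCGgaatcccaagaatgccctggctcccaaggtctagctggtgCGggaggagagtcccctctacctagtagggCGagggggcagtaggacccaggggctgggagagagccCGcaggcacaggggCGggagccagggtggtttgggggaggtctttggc
CG dinucleotides numbered 7 for Serpine3, 1 for Serpina3n, 20 for Serpinb6a and 11 for Serpinh1, against a median of 6 over 32851 windows of the same length. The CG number did not order the members by level, since Serpine2 had 34, more than 96.5% of all windows, and was almost without counts. A 2nd listed start of Serpinb6a (chr13:33936084-33936333) had 2. The sequence CATGTG, searched on both strands, was found in the window of Serpinf1 and in 12.3% of all windows. The palindromic pattern TTCNNNGAA was found in that of Serpinb6a at 34002795 and in 7.02% of all windows. No window of a member held TATAAA, found in 12.4% of all windows, or CACGTG, found in 6.02%. The same was true of the letters TAATCC, found in 6.25% of all windows, and of the pattern GAANNTTC, found in 6.69%. Serpinb1a was not analysed here for its promoter.

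Serpine3 encodes a serpin of clade E, which also holds protease nexin-1. The gene lies on chr14:62663667-62692243 (plus strand) of GRCm38 and has 1 annotated transcript of 1402 bases in 9 exons. GFP+ libraries of mice 1, 2, 3, 4, 5 and 7 held 576, 371, 175, 154, 107 and 130 Serpine3 counts. The ctrl periphery library of mouse 1 held 5 counts, and the other 4 ctrl periphery libraries and all 6 ctrl center libraries held 0. All GFP+ libraries were thus above all others, and Serpine3 was the only member whose ranges did not overlap between 2 groups. Of all genes tested, ranges did not overlap for 0.862% with higher and 0.269% with lower levels in GFP+ than in ctrl center, 0.624% and 0.663% in GFP+ than in ctrl periphery, and 0.64% and 0.115% in ctrl periphery than in ctrl center. Serpine3 had 12.2 ± 6.48 CPM (SD, n = 6) against 0.0557 ± 0.125 CPM (SD, n = 5) in ctrl periphery. With 3 counts allowed per ctrl center library, the GFP+ mean was at least 40.0-fold higher than ctrl center, and with the 4 empty ctrl periphery libraries set to that floor it was 54.7-fold higher than ctrl periphery. Since the cells were picked for a reporter in this gene, its levels are a description, and nothing is read from its rows in the fits across all genes.

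Among the GFP+ libraries the Serpine3 level spread 3.61-fold, from 6.20 CPM in mouse 7 to 22.4 CPM in mouse 1. The other libraries lay at 17.6 CPM in mouse 2, 11.6 CPM in mouse 4, 7.78 CPM in mouse 3 and 7.53 CPM in mouse 5, so that the 2 highest came from mice 1 and 2. Serpine3 shares 348 exon bases with Ints6, a subunit gene of the Integrator complex on the opposite strand, and the use of strand in the counting is not given in the sources used here. Ints6 averaged 6.68 ± 2.93 CPM (SD, n = 6) in GFP+, 7.19 ± 7.86 CPM (SD, n = 5) in ctrl periphery and 20.9 ± 23.7 CPM (SD, n = 6) in ctrl center. A ctrl center library with 701 Ints6 counts had 0 Serpine3 counts, and ctrl periphery of mouse 1, with 5 Serpine3 counts, had 248 Ints6 counts. The part of Ints6 reads in the Serpine3 counts was not tested.

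**Figure D1:**
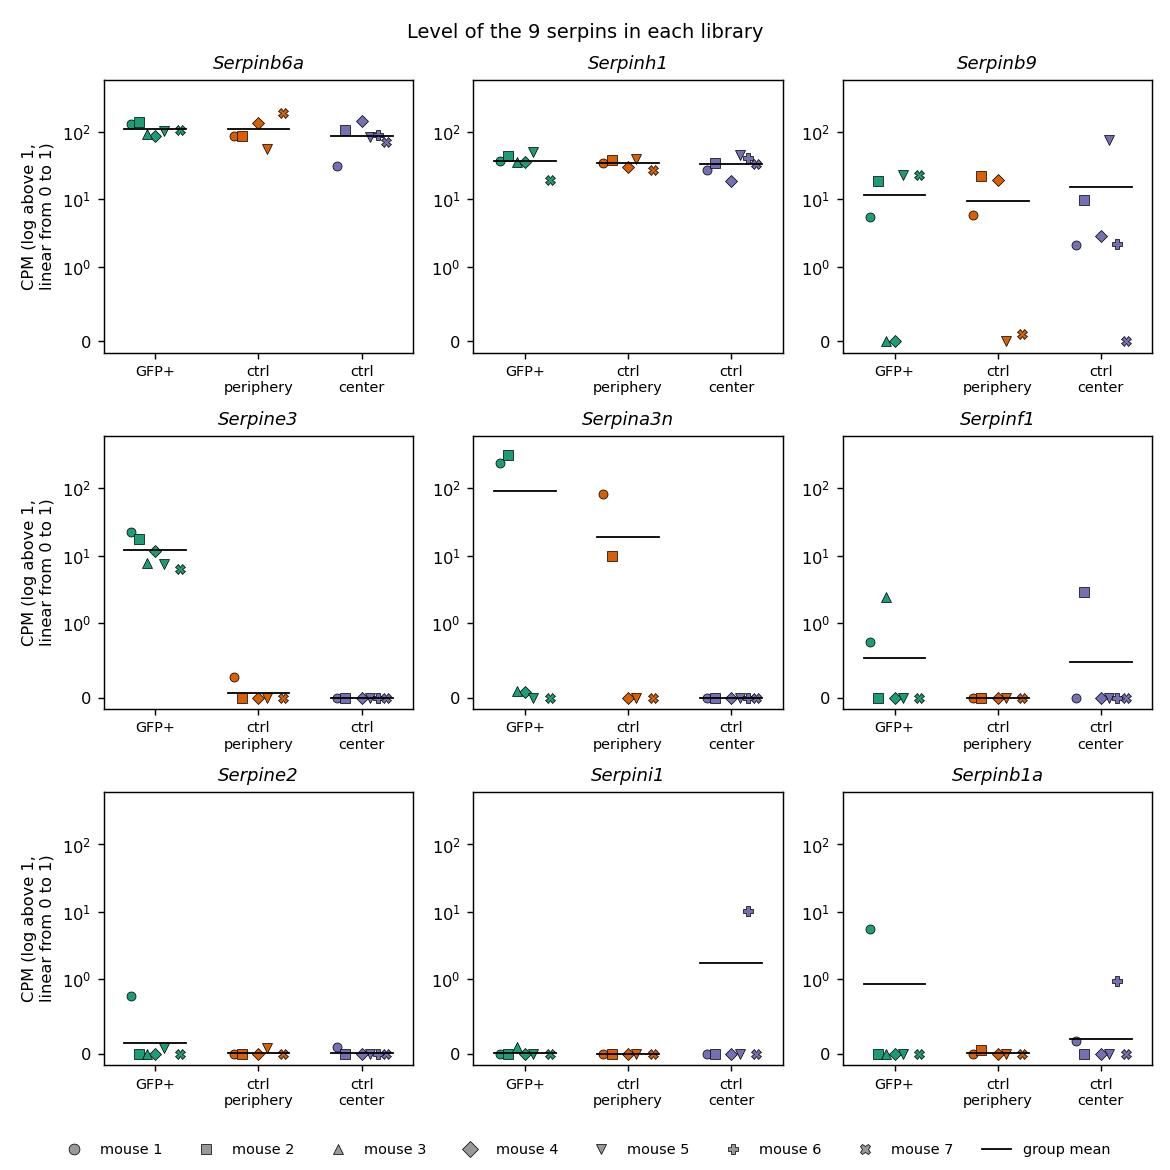
Level of each of the 9 serpins in every library, in CPM on an axis that is linear from 0 to 1 and logarithmic above, by group, with a symbol for each mouse and a line at the group mean. Serpinb6a and Serpinh1 are present in all 17 libraries, Serpine3 is at 6.20 CPM or more in GFP+ and at 0.279 CPM or less elsewhere, and Serpina3n is high only in mice 1 and 2, outside ctrl center.

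By Pearson's r of log2(CPM + 1) over the 17 libraries, the 5 genes most like Serpine3 among 10686 genes were Tubb4a (r = 0.93), Mapk13 (0.93), Zfp790 (0.91), Ecrg4 (0.89) and Scx (0.89). These r describe libraries that fall into a group with and a group without Serpine3, and they carry no test. Tubb4a, a beta-tubulin gene, had 78.9 ± 42.6 CPM (SD, n = 6) in GFP+, 1.92 ± 3.83 CPM (SD, n = 5) in ctrl periphery and at most 2 counts in ctrl center. Mapk13, which encodes a p38 kinase, had 11.6 ± 7.15 CPM (SD, n = 6) in GFP+ and at most 20 counts elsewhere. Ecrg4, which encodes a secreted peptide precursor, had 13.4 ± 4.99 CPM (SD, n = 6) in GFP+, up to 85 counts in ctrl periphery and 0 in ctrl center. Scx, the scleraxis transcription factor gene, held up to 718 counts in GFP+, where 1 library had 0, and at most 1 count in any other library.

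Serpinb6a, an intracellular inhibitor of trypsin-like proteases and cathepsin G, was the most abundant member per length. It lies on chr13:33917918-34002794 (minus strand). GFP+ libraries held 3343, 2995, 2072, 1178, 1476 and 2231 counts in mice 1, 2, 3, 4, 5 and 7. Ctrl periphery libraries of mice 1, 2, 4, 5 and 7 held 1569, 1698, 2838, 711 and 1917 counts, and ctrl center libraries of mice 1, 2, 4, 5, 6 and 7 held 374, 1954, 1454, 464, 1186 and 643. The 3 ranges of CPM overlapped, with 88.9 to 142 in GFP+, 56.5 to 189 in ctrl periphery and 31.5 to 145 in ctrl center. Group means were 111 ± 21.2 (SD, n = 6), 112 ± 52.1 (SD, n = 5) and 88.3 ± 37.7 CPM (SD, n = 6). By edgeR's quasi-likelihood test the log2 fold change of GFP+ against ctrl center was 0.28 (SE 0.35, 95% interval −0.45 to 1.01), that against ctrl periphery 0.03 (SE 0.29, −0.58 to 0.64) and that of ctrl periphery against ctrl center 0.28 (SE 0.43, −0.63 to 1.19). Its exons share 762 bases with Nqo2, 241 with Ripk1 and 584 with the antisense gene 1110046J04Rik, all on the opposite strand.

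Serpinh1 encodes HSP47, the collagen chaperone of the endoplasmic reticulum, which binds procollagen and inhibits no protease. It lies on chr7:99345376-99353239 (minus strand) and was detected in every library. Counts were 942, 936, 800, 470, 724 and 413 in GFP+, 618, 738, 637, 508 and 275 in ctrl periphery, and 327, 629, 186, 245, 547 and 304 in ctrl center, in the same order of mice. The levels of 37.1 ± 10.5 (SD, n = 6), 34.2 ± 5.38 (SD, n = 5) and 33.4 ± 9.55 CPM (SD, n = 6) overlapped in range. The log2 fold change of GFP+ was 0.06 against ctrl center (SE 0.54, 95% interval −1.08 to 1.20) and 0.14 against ctrl periphery (SE 0.39, −0.68 to 0.96), and that of ctrl periphery against ctrl center was −0.05 (SE 0.64, −1.39 to 1.30). Serpinh1 was among the steadiest genes of the table. Its coefficient of variation over the 17 libraries was 24.5%, and 1.84% of 10549 detected genes had a lower one. Serpinb6a had 36.2%, with 7.12% of genes lower, against a median of 88.5%.

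Serpinb9, an inhibitor of granzyme B, varied between libraries within every group. It lies on chr13:33003250-33017957 (plus strand). GFP+ libraries held 141, 401, 0, 0, 327 and 481 counts, ctrl periphery libraries 104, 429, 402, 0 and 1, and ctrl center libraries 25, 175, 29, 407, 29 and 0, in the order of mice given above. Each group therefore held both libraries with more than 100 counts and libraries with at most 1. The highest level was 75.2 CPM in ctrl center of mouse 5, the library of lowest total, against at most 23.0 CPM elsewhere. Group means were 11.7 ± 11.1 (SD, n = 6), 9.49 ± 10.6 (SD, n = 5) and 15.3 ± 29.5 CPM (SD, n = 6). The log2 fold change of GFP+ against ctrl center was −0.62 with a 95% interval of −4.08 to 2.84, and without ctrl center of mouse 5 it was 1.79. That of ctrl periphery against ctrl center was −0.90, and without the same library 1.48.

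Besides Serpine3, 3 members passed the expression filter, and edgeR called 0 of them in each of the 3 comparisons, where a call needs an adjusted p below 0.01 together with a change of more than 1 on the log2 scale. Calls made up 0.0431% of the 9286 genes tested between GFP+ and ctrl center, 0.0396% of the 10102 tested between GFP+ and ctrl periphery, and 0% of the 9535 tested between ctrl periphery and ctrl center, where 257 genes had an unadjusted p under 0.05. The adjusted p of Serpinb6a, Serpinh1 and Serpinb9 was 1.000 throughout (edgeR). With mouse as a block, 56 genes passed between GFP+ and ctrl center and 0 between GFP+ and ctrl periphery, and the members called stayed at 0. Over the 3 comparisons the 95% intervals reached from −0.63 to 1.19 for Serpinb6a, from −1.39 to 1.30 for Serpinh1 and from −4.61 to 3.84 for Serpinb9. A lack of calls therefore does not show equal levels. DESeq2 called Serpina3n between GFP+ and ctrl center and between ctrl periphery and ctrl center, and none of the other members besides Serpine3. Over all genes, DESeq2 called 1.54% between GFP+ and ctrl center and 0.259% between ctrl periphery and ctrl center.

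**Figure D2:**
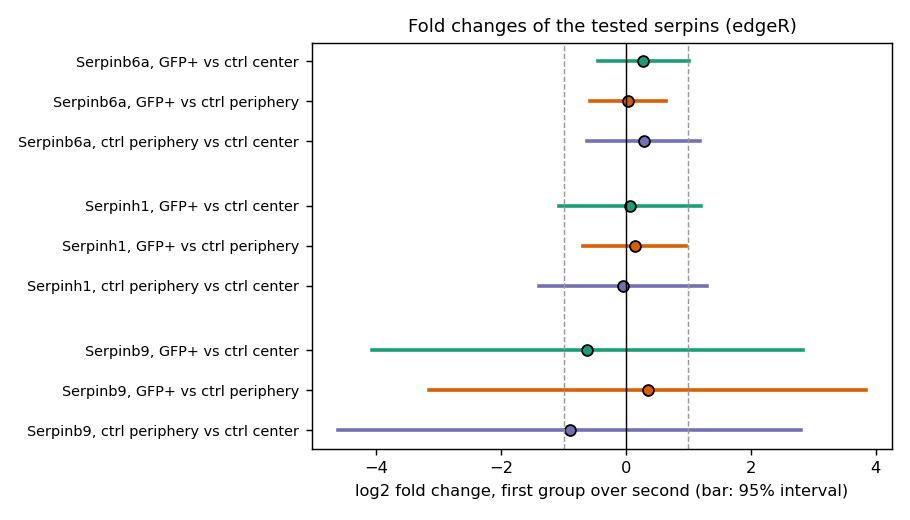
Log2 fold change (point) and 95% interval (bar) of the 3 members that were tested by edgeR in all 3 comparisons, the first group over the second, with dashed lines at −1 and 1. All 9 intervals include 0, and those of Serpinb9, such as −4.08 to 2.84 for GFP+ against ctrl center, are wider than those of Serpinb6a and Serpinh1.

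Serpina3n, a secreted acute-phase inhibitor related to human alpha-1-antichymotrypsin, had 6570 counts in 1 library and none in most others. It lies on chr12:104406729-104414329 (plus strand). GFP+ libraries held 6080 counts in mouse 1 and 6570 in mouse 2, but 2, 1, 0 and 0 in mice 3, 4, 5 and 7. Ctrl periphery held 1491 counts in mouse 1, 189 in mouse 2 and 0 in mice 4, 5 and 7, and all 6 ctrl center libraries held 0. The transcript was thus found in both kinds of peripheral pool of mice 1 and 2 and above the floor in no pool of another mouse, at 236 and 312 CPM in GFP+ and at 83.1 and 9.79 CPM in ctrl periphery. The animal numbers fall into 2 runs, mice 1 to 3 and mice 4 to 7, and the first run held all libraries above the floor, although its mouse 3 held 2 counts. Where it was present, the GFP+ pool was higher than the ctrl periphery pool of the same mouse in both mice. The 9 other Serpina3 genes of the table reached at most 13 counts in any library.

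Serpina3n was below the expression filter of edgeR and was compared by a two-sided exact permutation test of log2(CPM + 1). Without ties the smallest possible p is 0.00216 with 6 against 6 libraries and 0.00433 with 6 against 5. Serpina3n was at 0 in 11 of 17 libraries, and these ties raise the smallest p that can be reached. The difference of means was 2.73 for GFP+ against ctrl center (exact permutation p = 0.0606), 0.77 for GFP+ against ctrl periphery (exact p = 0.740) and 1.97 for ctrl periphery against ctrl center (exact p = 0.364). Without GFP+ of mouse 5 or of mouse 7 the first p was 0.0303, and it was 0.121 at most. The p-values describe 5 or 6 libraries a group that split by animal within the group. Those against ctrl center, where every library held 0, were the smallest that the ties allow. GFP+ means were at least 300-fold, and ctrl periphery means at least 60.9-fold, above a ctrl center floor of 3 counts per library, and these bounds rest on mice 1 and 2.

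Serpinf1 lies on chr11:75409769-75422701 (minus strand), and 14 libraries held none of its counts. There were 19 counts in GFP+ of mouse 1, 55 in GFP+ of mouse 3 and 52 in ctrl center of mouse 2. The highest level was 2.86 CPM, and no ctrl periphery library had a count. Best1, likewise a gene used by RPE, was near 0 in the same libraries. In them Rlbp1, the retinaldehyde-binding protein gene, averaged 3382 ± 492 CPM (SD, n = 6) in GFP+. It averaged 3135 ± 941 CPM (SD, n = 5) in ctrl periphery and 3372 ± 1194 CPM (SD, n = 6) in ctrl center.

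Serpine2 (protease nexin-1, a tissue inhibitor of thrombin and plasminogen activators) lies on chr1:79794197-79861180 (minus strand) and held 20 counts in GFP+ of mouse 1 and at most 1 elsewhere. Serpini1 (neuroserpin, an inhibitor of tissue plasminogen activator) lies on chr3:75557547-75643495 (plus strand) and held 139 counts in ctrl center of mouse 6, 2 in GFP+ of mouse 3 and 0 in the others. Serpinb1a, an inhibitor of neutrophil proteases on chr13:32842092-32851185 (minus strand), held 144 counts in GFP+ of mouse 1, 13 in ctrl center of mouse 6 and at most 2 elsewhere. Each of these transcripts was thus above the floor in 1 or 2 pools of cells. By the exact permutation test the p of Serpinf1, Serpine2, Serpini1 and Serpinb1a lay between 0.545 and 1 in all 3 comparisons. These genes were at 0 in 13 to 15 of the 17 libraries. So many ties leave the test little room for a low p, and its p-values do not show equal levels.

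To set members against each other, mean levels were taken per length, as CPM per kilobase of the longest annotated transcript, averaged over the 17 libraries. Serpinb6a was at 47.0 ± 17.01 (SD, n = 17), Serpina3n at 18.3 ± 44.6, Serpinh1 at 15.4 ± 3.76, Serpinb9 at 3.56 ± 5.35 and Serpine3 at 3.08 ± 4.99 CPM per kilobase, and the other 4 were at 0.208 or below. Within single libraries Serpinb6a exceeded Serpinh1 in 17 of 17, by 1.19-fold to 8.11-fold, and exceeded Serpina3n in 14 of 17. In this order Serpinb6a and Serpina3n, Serpina3n and Serpinh1, and Serpinb9 and Serpine3 differed by less than the SD of one of the pair, whereas Serpinh1 and Serpinb9 differed by more than either SD. In GFP+ libraries alone Serpine3 was at 8.69 ± 4.62 CPM per kilobase (SD, n = 6). With the mean length of all annotated transcripts, Serpinb6a stood at 104 and Serpinh1 at 23.2 CPM per kilobase.

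The members held 97.1% of the 58337 counts of the 63 serpin genes of the table, and Serpinb6a held 48.2%, shares of counts that are not corrected for length. In 44 of the 63, no library exceeded 3 counts, and 8 had no count at all. Serpinb6a and Serpinh1 were the only serpins above 3 counts in all 17 libraries. Outside the members, Serpinc1, the gene of antithrombin, exceeded 3 counts in 13 libraries and reached 396 counts (31.5 CPM) in ctrl periphery of mouse 5, against at most 9.37 CPM in the others. Serping1, the complement C1 inhibitor gene, was at 0 in all libraries. Serpinf2 (alpha-2-antiplasmin), named after its values were seen, held 40 to 114 counts in 4 libraries.

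**Figure D3:**
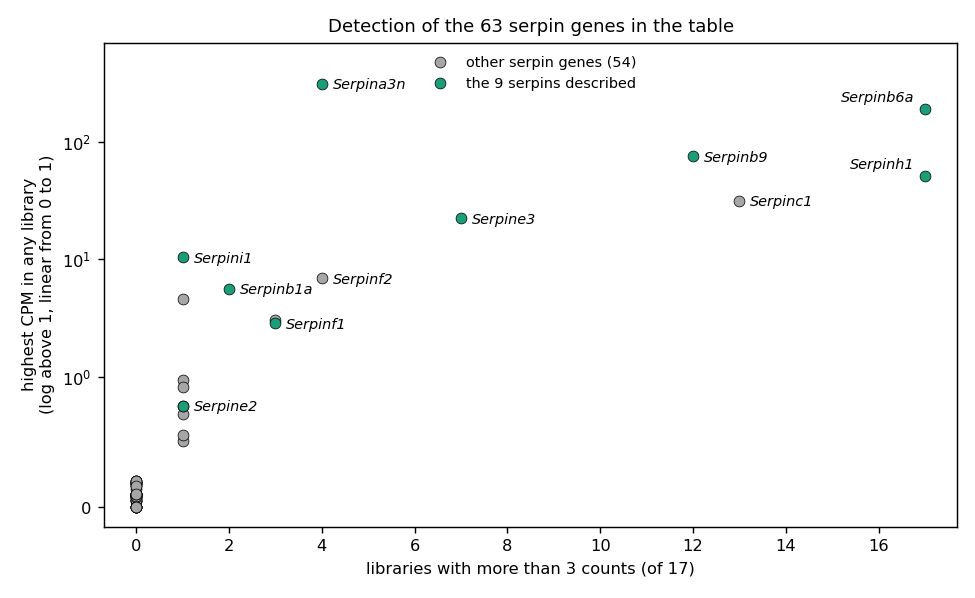
Number of libraries with more than 3 counts (of 17) and highest CPM in any library (linear from 0 to 1, logarithmic above) for each of the 63 serpin genes, the 9 members in green. Serpinb6a and Serpinh1 stand alone at 17 libraries, Serpina3n is above 3 counts in 4 libraries with a highest level of 312 CPM, and 44 genes lie at 0 libraries.

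Proteases that serpins are known to inhibit were taken from a list of 24 genes, of which 7, 8 and 7 passed the filter in the comparisons of GFP+ with ctrl center, GFP+ with ctrl periphery and ctrl periphery with ctrl center, and edgeR called 0 of them in each. Their median log2 fold change was 0.37, −0.47 and −0.14, beside 0.00, 0.01 and 0.01 over all genes tested. The 3 of highest mean CPM were Plau (urokinase), Klkb1 (plasma prekallikrein) and Ctsl (cathepsin L). Ctsl was at 374 ± 81.4 (SD, n = 6), 265 ± 101 (SD, n = 5) and 286 ± 161 CPM (SD, n = 6) in GFP+, ctrl periphery and ctrl center. Plg, F2, Gzma, Elane, Prtn3 and Casp1 had 0 counts in all 17 libraries, and Gzmb, the main target of Serpinb9, and Ctsg had at most 2.

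By group median, Plau was lowest in GFP+ and highest in ctrl center. Its lowest, median and highest levels were 185, 612 and 1358 CPM in GFP+, and 799, 2079 and 12904 CPM in ctrl center. Ctrl periphery of mice 1, 2, 4, 5 and 7 had 888, 1539, 1008, 2371 and 1482 CPM. The ranges of all 3 groups overlapped, and in 5 of 5 mice with all groups GFP+ was below both others. Ctrl periphery was below ctrl center in 4 of these mice and above it in 1. The log2 fold change of GFP+ against ctrl center was −2.81 (SE 0.65, edgeR adjusted p = 0.0729), and with mouse as a block −2.60 (adjusted p = 0.000295), which passed. Klkb1 had a log2 fold change of −2.59 (SE 0.62, edgeR adjusted p = 0.0733) and with the block −2.48 (adjusted p = 0.000295), and every library held between 1.78 and 3.07 Plau counts per Klkb1 count. The block called 0.603% of the 9286 genes tested, 55 lower and 1 higher in GFP+. Under it the median log2 fold change over all genes was 0.57.

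Both protease transcripts followed the mitochondrial share of the libraries. Pearson's r of log2(CPM + 1) with that share over the 17 libraries was 0.97 for Plau and 0.97 for Klkb1, a description over points that also share their group, and 0.328% and 0.497% of 10674 genes had a higher r. Serpinb6a had r = −0.29, Serpinh1 −0.03 and Serpinb9 −0.03. With the mitochondrial share as a covariate, an alternative added after seeing the data, the log2 fold change of Plau between GFP+ and ctrl center was 0.40 (SE 0.33, edgeR adjusted p = 1.000) and that of Klkb1 was 0.36 (SE 0.35, adjusted p = 1.000). Group and mitochondrial share cannot be told apart as sources of the difference in these protease levels.

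**Figure D4:**
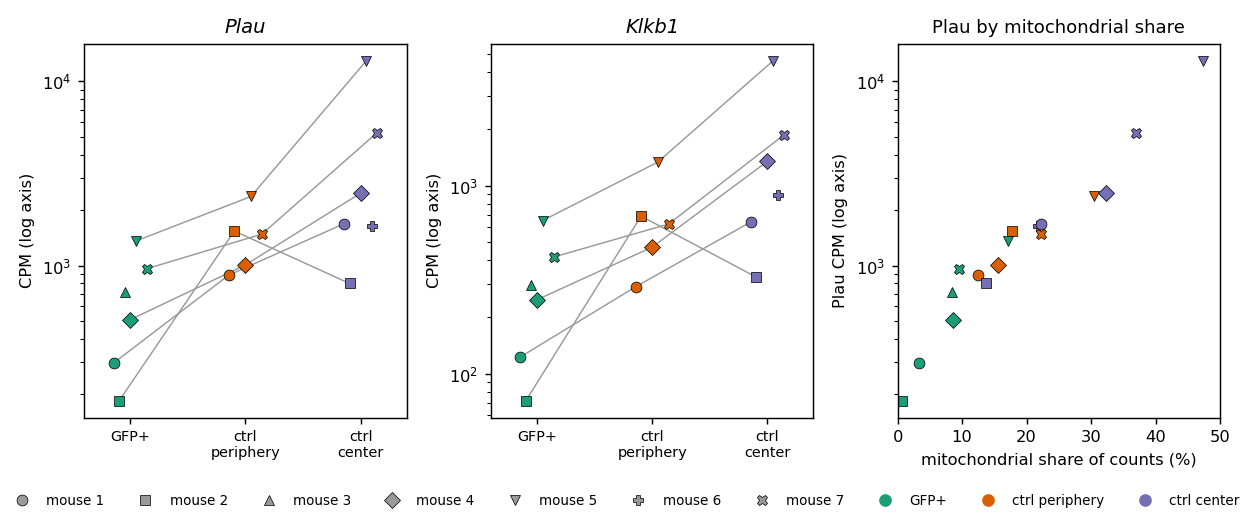
CPM of Plau and Klkb1 (log axes) by group, with lines joining the libraries of 1 mouse, and CPM of Plau (log axis) against the mitochondrial share of the counts in percent, with a symbol for each mouse and a colour for each group. GFP+ is the lowest group in each of the 5 mice with all groups, and Plau rises with the mitochondrial share across the 17 libraries, up to 12904 CPM at a share of 47.3%.

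Receptors that bind or clear serpins and their complexes came from a list of 12 genes, of which 8, 10 and 8 were tested and 0 called by edgeR in the 3 comparisons, in the order used above. The clearance receptors Lrp1, Lrp2 and Sorl1 had the highest mean CPM. Lrp1, which takes up serpin-protease complexes, was at 223 ± 86.5 (SD, n = 6), 217 ± 32.1 (SD, n = 5) and 128 ± 55.7 CPM (SD, n = 6) in GFP+, ctrl periphery and ctrl center, with a log2 fold change of 0.75 between GFP+ and ctrl center (SE 0.36, edgeR adjusted p = 0.856). Lrp2 was at 189 ± 78.1, 131 ± 52.0 and 113 ± 60.7 CPM and Sorl1 at 133 ± 47.8, 157 ± 54.9 and 119 ± 78.2 CPM in the same groups. Plaur, the urokinase receptor gene, had 0 counts in every library.

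Genes that fold and modify collagen beside Serpinh1 came from a list of 24, of which 23 were in the table, 13, 14 and 13 were tested and edgeR called 0. Their median log2 fold change was 0.52, −0.01 and 0.46 in the same order of comparisons, beside 0.00, 0.01 and 0.01 over all genes tested. Those of highest mean CPM were Col8a1 and Col8a2, chains of the short-chain collagen type VIII, and Ppib, the prolyl isomerase that acts beside HSP47. Col8a1 was at 1027 ± 220 (SD, n = 6), 1093 ± 209 (SD, n = 5) and 908 ± 380 CPM (SD, n = 6), Col8a2 at 478 ± 177, 625.2 ± 227 and 325 ± 110 CPM and Ppib at 174 ± 28.8, 152 ± 38.7 and 177 ± 82.2 CPM in GFP+, ctrl periphery and ctrl center. The fibrillar chains that HSP47 is best known for were close to the floor, with Col1a1 at 0 to 11 counts and Col1a2 at most at 1 count per library. DESeq2 called Col4a2 and Fkbp10 between GFP+ and ctrl center, where it called 1.54% of 12741 genes. Neither gene was tested by edgeR in this comparison. Col4a2 was at 9.93, 23.3, 6.71, 0, 13.2 and 2.86 CPM in GFP+ of mice 1, 2, 3, 4, 5 and 7 and at most at 3 counts in ctrl center. Fkbp10 was at 19.2 CPM in GFP+ of mouse 7, 2.67 CPM in GFP+ of mouse 3 and 0 in the other GFP+ and in all ctrl center libraries, so that its difference rests mainly on 1 library.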

How the data were processed

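RNA of hand-picked RPE pools was sequenced in 17 libraries. Per the labels, fastp, Salmon and the GRCm38.p6 build were used, without versions. The authors deposited 1 table of estimated counts per gene symbol, in whole numbers, and no column was left unused. The use of strand is not given in the sources used here. Reads carried no molecular identifiers, so that floors cover counting error only.

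Libraries were grouped by their labels, and p-values measure the spread between pools, some of which share an animal. Counts were tested with edgeR 4.0.16 (R 4.3.3), with TMM scaling, its expression filter and the quasi-likelihood test, on the 2 groups compared. A gene was called when its p, adjusted by Benjamini and Hochberg's method, was below 0.01 and it changed by more than 1 on the log2 scale. The SE was the log2 fold change divided by the root of F. Members below the filter were compared with a two-sided exact permutation test of log2(CPM + 1) (scipy 1.17.1). The fits were run on simulated counts with large known changes and a smaller spread between libraries than in these data. That run therefore does not show their power here. Serpine3 stayed in the fits across all genes, but its rows were not read as tests, since the cells were picked by its reporter.

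Coordinates and lengths came from GENCODE M21, which held 21853 of the 22253 symbols, and promoters from RefSeq, which held 8 of the 9 members. Besides the members, the genes named were other serpins with at least 5 CPM in 3 libraries, the 3 highest genes of each list, called genes, the 5 genes most like Serpine3, and Ints6. Marker genes, and genes said to be at or near 0, were named in addition. The members and lists were chosen with earlier results of these data known.

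Same-numbered libraries came from the same mouse by their labels, which pairs them. Deviations from the group means over 15 same-mouse pairs correlated at −0.02 to 0.093. Alternatives were DESeq2 1.42.0, other size factors, no filter, no mitochondrial genes, all groups in 1 fit, mouse as a block, the run of animal numbers, other lengths and pseudocounts, and leaving out each library, and, added after seeing the data, the mitochondrial share as a covariate.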

Additional observations from a re-analysis of the deposited data

Results flagged for a closer look

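In 6 of 19 groups of values, 1 library lay far from the others of its group by Dixon's criterion, taken on log2(CPM + 1). Chance flags about 1 in 20 groups of continuous values, a rate that does not hold for groups otherwise at 0, as most of these were. Serpine3 was at 0.279 CPM (5 counts) in ctrl periphery of mouse 1 and at 0 in the other ctrl periphery libraries. Serpine2 was at 0.776 CPM (20 counts) in GFP+ of mouse 1, with the next library at 0.0704 CPM. Serpinb1a was at 5.59 CPM (144 counts) in the same GFP+ library and at 0.9749 CPM (13 counts) in ctrl center of mouse 6. Serpini1 was at 10.4 CPM (139 counts) in that ctrl center library and at 0 in the rest of its group. Serpinf1 was at 2.86 CPM (52 counts) in ctrl center of mouse 2 and at 0 in the rest of its group.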

How the results depend on the processing

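The members called stayed at 0 under every edgeR alternative, and DESeq2 called 2, 1 and 1 members, and the same numbers of serpin family genes, for GFP+ against ctrl center, GFP+ against ctrl periphery and ctrl periphery against ctrl center. Serpine3 is 1 of these in each of the first 2 comparisons, and the others are Serpina3n. Since the cells were picked by the Serpine3 reporter, neither a call of Serpine3 nor the lack of one is read as a test. Genes called in all numbered 4, 4 and 0, and with DESeq2 196, 67 and 29, or 1.54%, 0.558% and 0.259% of genes. With mouse as a replicate block 56, 0 and 0 genes were called, with the run of animal numbers 1, 1 and 0, with the mitochondrial share 0, 0 and 0, and with all groups in 1 fit 0 for GFP+ against ctrl periphery. Leaving out 1 library gave 1 to 3, 0 to 5, and 0. The block added calls of 2 proteases, Plau and Klkb1, and ended that of the glial marker Vim for GFP+ against ctrl periphery, and it changed no other call of the members or of the protease, receptor and collagen lists. For GFP+ against ctrl center it moved the median log2 fold change over all genes to 0.57, and DESeq2 to −0.43. DESeq2 called 2 collagen genes. The cause of these differences was not tested. No log2 fold change of Serpinb6a, Serpinh1 or Serpinb9 passed the threshold under any setting, and these changed sign. For GFP+ against ctrl center, Serpinb9 was 0.19 with the block and 2.09 with the mitochondrial share. For GFP+ against ctrl periphery, Serpinb6a was −0.33 and Serpinb9 −0.044 with the mitochondrial share. For ctrl periphery against ctrl center, Serpinh1 was 0.036 without a filter, 0.061 with the block and 0.078 with the mitochondrial share, and Serpinb9 was 1.00 with the block and 0.86 with the mitochondrial share. With 1 library left out, Serpinb9 ranged from −0.92 to 1.79 and Serpinh1 from −0.083 to 0.23 for GFP+ against ctrl center, Serpinb6a from −0.12 to 0.29 for GFP+ against ctrl periphery, and Serpinb6a from −0.0018 to 0.45, Serpinb9 from −1.49 to 1.48 and Serpinh1 from −0.19 to 0.13 for ctrl periphery against ctrl center. Below the filter, the log2 difference with 1 library left out ranged for GFP+ against ctrl center from −0.17 to 0.43 for Serpinf1, −0.68 to 0.020 for Serpini1, −0.20 to 0.41 for Serpinb1a and 1.62 to 3.28 for Serpina3n. For GFP+ against ctrl periphery it ranged from −0.0024 to 0.16 for Serpine2, −0.34 to 1.88 for Serpina3n and −0.015 to 0.53 for Serpinb1a, and for ctrl periphery against ctrl center from −0.019 to 0.022 for Serpine2. By mean transcript length Serpinb6a was at 104 and Serpinh1 at 23.2 CPM per kilobase.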

Other observations

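Genes with a pattern like that of Serpina3n were looked for after its values had been seen. By Pearson's r of log2(CPM + 1) over the 17 libraries the 5 closest of 10687 genes were Capg (0.92), Pros1 (0.90), Ptprk (0.88), A2m (0.87) and Erbb2 (0.85), a description that rests on the few libraries with Serpina3n. A2m, the gene of the broad protease inhibitor alpha-2-macroglobulin, was at 3585 CPM in GFP+ of mouse 1, 3113 CPM in GFP+ of mouse 2 and 2155 CPM in ctrl periphery of mouse 1, against 56.6 to 789 CPM in the other 14 libraries. Osmr, the oncostatin M receptor gene, also picked after its values were seen, was at 538, 501 and 402 CPM in the same 3 libraries and at 52.6 to 197 CPM in the others. The 2 genes thus had their 3 highest values in the 3 libraries with the most Serpina3n, and ctrl periphery of mouse 2, with 189 Serpina3n counts, had 327 CPM of A2m and 111 CPM of Osmr.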
